A study of Mus musculus with 6 samples.

Results

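The ryanodine receptor genes Ryr1, Ryr2 and Ryr3 and the inositol trisphosphate (IP3) receptor genes Itpr1, Itpr2 and Itpr3 encode the calcium release channels of the endoplasmic reticulum. They were selected by gene symbol, as 6 of the 32201 genes in the deposited table. The tissue was hippocampus of male C57BL/6N mice, 8 weeks old per the labels. Every mouse behind these libraries had gone through chronic unpredictable mild stress, in which mild stressors are varied over time as a rodent model of depression. There were 3 libraries from stressed mice treated with baicalin at 20 mg/kg and 3 libraries from stressed mice given saline. Baicalin is a plant flavonoid of Chinese skullcap. The unstressed control group named in the labels was not analysed here, so levels cannot be set against an unstressed hippocampus. The labels do not say whether the libraries of a group came from separate animals, and p-values therefore measure only the spread between these libraries, which may be technical.

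Both channel families sit in the membrane of the endoplasmic reticulum, the main intracellular calcium store, and both assemble as tetramers. Ryanodine receptors open when cytosolic calcium rises, which amplifies calcium entry through the plasma membrane, whereas IP3 receptors open when phospholipase C has produced IP3 downstream of Gq-coupled receptors. In hippocampal neurons both routes feed dendritic calcium signals and synaptic plasticity. RyR1 is the skeletal muscle type, RyR2 the cardiac type and the most abundant in brain, and RyR3 is known from hippocampal pyramidal cells. IP3R1 is the main neuronal IP3 receptor, IP3R2 is the main astrocytic one, and IP3R3 is best known from epithelial and other secretory cells.

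The channel genes are long, and their transcripts share only short identical stretches. How reads were assigned between them was not tested. Gene spans in the deposited table (mm10) were 586 kb for Ryr3 (ENSMUSG00000057378, chromosome 2, 112631355 to 113217087, minus strand), 554 kb for Ryr2 (ENSMUSG00000021313, chromosome 13, 11553102 to 12106945, minus strand) and 122 kb for Ryr1 (ENSMUSG00000030592, chromosome 7, 29003344 to 29125152, minus strand). They were 338 kb for Itpr1 (ENSMUSG00000030102, chromosome 6, 108213096 to 108551109, plus strand), 394 kb for Itpr2 (ENSMUSG00000030287, chromosome 6, 146108299 to 146502178, minus strand) and 65 kb for Itpr3 (ENSMUSG00000042644, chromosome 17, 27057304 to 27122223, plus strand). In GENCODE release M21 the longest coding transcripts held 104 exons for Ryr3, 105 for Ryr2 and 109 for Ryr1, against 62 for Itpr1, 57 for Itpr2 and 58 for Itpr3. The longest identical stretch between transcripts of any 2 of the genes was 35 bp, between Ryr1 and Ryr2, and library fragments were 100 to 300 bp long, per the labels. The coding sequence of the ion pore shows how far the genes differ in that stretch. The lines below give 60 bases of coding sequence of each gene from GENCODE M21 (GRCm38), 5′ to 3′ on the coding strand, with the codons of the glycine-rich selectivity filter in capitals.
Ryr1: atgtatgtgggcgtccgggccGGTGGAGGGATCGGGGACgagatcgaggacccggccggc
Ryr2: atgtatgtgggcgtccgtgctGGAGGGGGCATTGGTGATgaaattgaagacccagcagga
Ryr3: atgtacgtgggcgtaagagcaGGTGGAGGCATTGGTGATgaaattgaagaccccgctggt
Itpr1: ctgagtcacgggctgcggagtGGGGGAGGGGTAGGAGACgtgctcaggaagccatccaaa
Itpr2: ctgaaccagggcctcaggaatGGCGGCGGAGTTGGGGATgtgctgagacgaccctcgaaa
Itpr3: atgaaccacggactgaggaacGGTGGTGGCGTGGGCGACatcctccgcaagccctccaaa
Each window lies inside 1 exon. That exon was number 100 of 104 in Ryr3 (chr2:112636610-112636669, minus strand), 101 of 105 in Ryr2 (chr13:11560606-11560665, minus strand) and 105 of 109 in Ryr1 (chr7:29005577-29005636, minus strand). It was number 58 of 62 in Itpr1 (chr6:108518767-108518826, plus strand), 53 of 57 in Itpr2 (chr6:146158890-146158949, minus strand) and 54 of 58 in Itpr3 (chr17:27118610-27118669, plus strand). Between 10 and 15 of the 60 bases differed within the ryanodine receptor genes, between 17 and 20 within the IP3 receptor genes, and between 27 and 36 across the families.

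Library totals were 61303274 to 64983755 counts with baicalin and 65989141 to 67957752 with saline. The baicalin libraries 2 and 3 stood apart in skeletal muscle transcripts. The summed level of 5 muscle markers (Acta1, Ckm, Myh4, Mylpf and Tnnt3) was 25.6, 144 and 155 FPKM in the baicalin libraries, against 17.4, 23.0 and 17.2 FPKM in the saline libraries. FPKM is the deposited level, scaled by the authors to transcript length and library size. All 5 had positive log2 changes (median 2.61), none was at 0, and their source was not tested. Markers of dentate granule cells, a hippocampal cell type, were present in both groups. The 5 used (Prox1, C1ql2, Dsp, Tdo2 and Calb1) summed to 77.5 to 82.2 FPKM with baicalin and 55.5 to 78.2 FPKM with saline. Calb1, which is also on the Purkinje cell list, stood at 30.4 to 31.8 FPKM with baicalin and 27.6 to 29.8 FPKM with saline. Of the 13153 genes that averaged 1 FPKM or more, edgeR's quasi-likelihood test called 6 genes at an adjusted p under 0.05, which is 0.0456%. With baicalin 2 were higher (0.0152%) and 4 lower (0.0304%), or 3 and 3 with limma on TPM-scaled values, and none was a calcium release channel gene.

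The order of levels was Itpr1, then Ryr2, then Ryr3, in all 6 libraries. Itpr1 averaged 19.3 ± 0.573 FPKM with baicalin and 21.9 ± 0.730 FPKM with saline (SD, n = 3 each), followed by Ryr2 at 6.88 ± 1.06 and 7.94 ± 1.58 FPKM and Ryr3 at 4.78 ± 0.183 and 6.00 ± 0.236 FPKM. Ryr1 and Itpr2 came next and were close. With baicalin, Ryr1 (1.58 ± 0.140 FPKM) lay above Itpr2 (1.28 ± 0.0775 FPKM) in 3 of 3 libraries, whereas with saline the ranges of Ryr1 (1.38 ± 0.207 FPKM) and Itpr2 (1.39 ± 0.0344 FPKM) overlapped. Itpr3 was lowest in both groups, at 0.357 ± 0.0630 FPKM with baicalin and 0.372 ± 0.0630 FPKM with saline, and was the only one of the 6 under the filter of 1 FPKM. The other neighbours in this order did not overlap within either group.

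**Figure D1:**
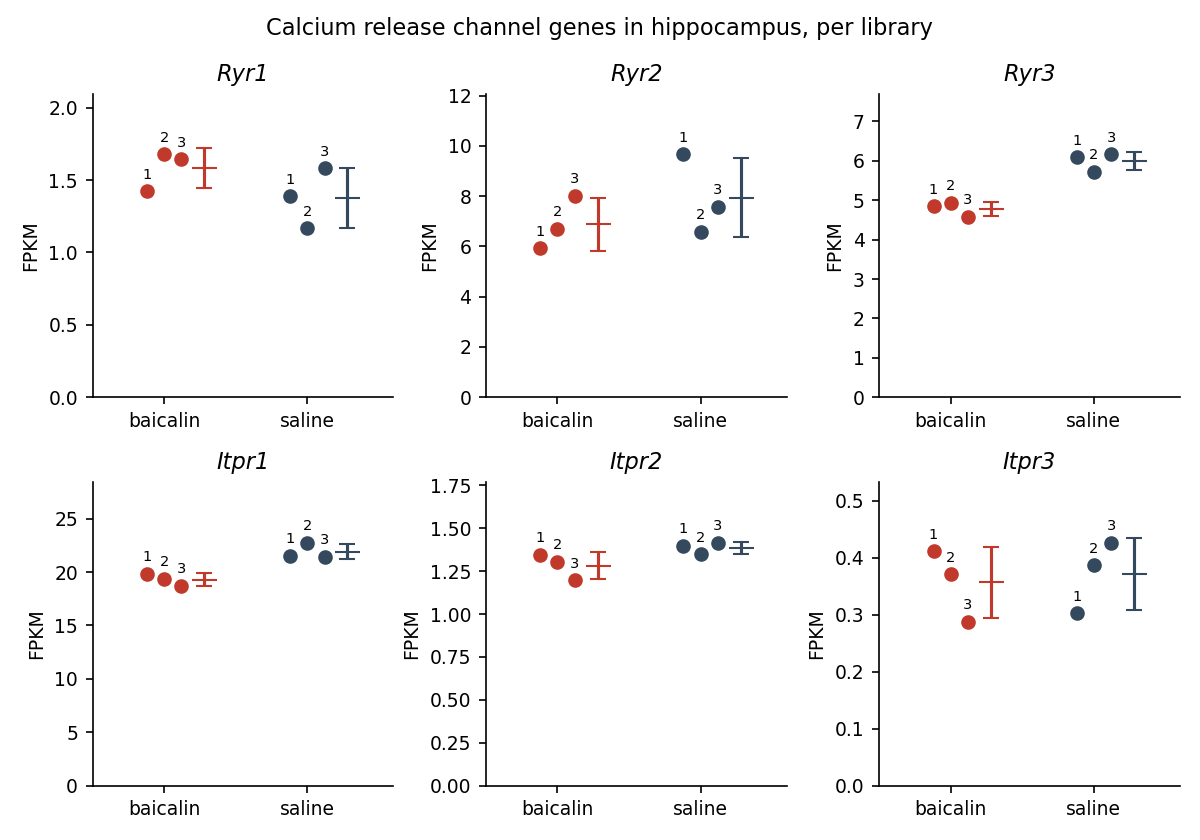
FPKM of each channel gene in the 3 baicalin libraries (red, left) and the 3 saline libraries (dark grey, right), each point labelled with its library number; the bar beside the points is the mean ± SD. For Ryr3 the baicalin libraries sit between 4.58 and 4.93 FPKM, all below the saline libraries, and Itpr1 and Itpr2 are also parted, while Ryr1, Ryr2 and Itpr3 overlap.

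Ryr3, the ryanodine receptor known from hippocampal pyramidal cells, had the most negative log2 change of the 6 genes. Its level was 4.84, 4.93 and 4.58 FPKM with baicalin, against 6.10, 5.73 and 6.17 FPKM with saline. Every baicalin library lay below every saline library, and the spread within each group was small beside the gap. The log2 change was -0.32 ± 0.05 (SE), a fold of 0.802, in edgeR, with an adjusted p = 0.167 over all genes tested (unadjusted p = 0.000279). Ryr3 therefore did not pass, although it ranked 7th by p among lower genes and 22nd among all 13153. DESeq2 did call it (log2 change -0.32, adjusted p = 0.000184 from the Wald test), in a fit that called 211 genes, and it was the only channel gene DESeq2 called. The change was at -0.35 to -0.30 with any 1 library left out, and at -0.30 with both baicalin libraries 2 and 3 left out. In bulk tissue, fewer cells of a type and less RNA per cell cannot be told apart. The 5 markers of CA1 pyramidal cells summed to 118, 93.3 and 108 FPKM with baicalin and 126, 116 and 120 FPKM with saline, and 4 of the 5 had negative log2 changes (median -0.35). Those 4 (Fibcd1, Man1a, Pou3f1 and Wfs1) were lower in every baicalin library than in every saline library. Of all genes, 9.52% were parted downward in scaled counts. The nearest libraries almost met for Man1a (6.71 against 6.73 FPKM) and Pou3f1 (10.23 against 10.26 FPKM). The remaining marker, Mpped1, overlapped and had a log2 change of 0.22 ± 0.30. The 5 markers of CA2 and CA3 pyramidal cells summed to 181, 176 and 182 FPKM with baicalin and 146, 147 and 164 FPKM with saline. Log2 changes were positive in 3 of these 5, but only Pcp4 was parted between groups. Pcp4 made up most of each sum and had a log2 change of 0.40 ± 0.10. Amigo2 (-0.01), Cpne4 (-0.07), Grik4 (0.06) and Bok (0.05) overlapped, so the parted sum does not describe these markers as a set. All 5 dentate granule cell markers had positive log2 changes (median 0.27), and all 5 were lowest in saline library 2. Dsp, Tdo2 and Calb1 were parted upward, whereas Prox1 and C1ql2 overlapped. For Prox1, saline library 2 stood at 7.811 FPKM, saline library 3 at 12.17 FPKM and the baicalin libraries at 10.93 to 11.72 FPKM. C1ql2 stood at 14.45 FPKM in saline library 2 and 27.27 FPKM in saline library 3, and at 25.26 to 28.02 FPKM with baicalin. None of these markers was at 0, and the part of cell composition in the level of Ryr3 was not tested. Aven, a protein-coding gene on the opposite strand whose exons overlap those of Ryr3, had a log2 change of 0.04 ± 0.08, and the sources used here do not say whether strand was used in counting.

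Ryr2, the cardiac-type channel and the most abundant ryanodine receptor here, varied widely between libraries of the same group. Its level was 5.93, 6.70 and 8.02 FPKM with baicalin, against 9.67, 6.58 and 7.58 FPKM with saline. The groups overlapped, with the lowest value in baicalin library 1 and the highest in saline library 1. The log2 change was -0.20 ± 0.17 (adjusted p = 0.652 in edgeR). Single libraries moved it: it was -0.03 when saline library 1 was dropped, -0.31 when saline library 2 was, -0.10 when baicalin library 1 was and -0.33 when baicalin library 3 was. It was -0.42 with both baicalin libraries 2 and 3 left out.

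Ryr1, the channel of skeletal muscle, was the channel gene with a positive log2 change. Its level was 1.42, 1.68 and 1.64 FPKM with baicalin, against 1.39, 1.17 and 1.58 FPKM with saline. The groups overlapped, and the log2 change of 0.20 ± 0.12 did not pass (adjusted p = 0.544 in edgeR). The 2 highest libraries were baicalin libraries 2 and 3, the libraries with 144 and 155 FPKM of summed skeletal muscle markers. Saline library 3 reached 1.58 FPKM of Ryr1 with 17.2 FPKM of those markers. Without baicalin libraries 2 and 3 the log2 change of Ryr1 was 0.05 ± 0.18, with the remaining baicalin library assumed to vary like the saline ones. The part of muscle transcripts in the level of Ryr1 was not tested. The log2 change of Ryr1 was 0.10 without saline library 2 and 0.31 without saline library 3. It was 0.11 with limma on TPM-scaled values, 0.12 with limma on log2(FPKM + 1) and 0.33 with the length trend removed.

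Other genes of the muscle calcium store stood much further above saline in these 2 libraries than Ryr1 did. Atp2a1, which encodes the fast-muscle calcium pump, stood at 2.80, 14.3 and 14.5 FPKM with baicalin and at 2.32, 2.77 and 1.95 FPKM with saline. Casq1, which encodes the calcium-binding protein of the muscle store, stood at 0.626, 3.42 and 3.67 FPKM with baicalin and at 0.544, 0.736 and 0.862 FPKM with saline. Baicalin library 1 lay near the saline libraries for both. Trdn, Hrc and Jph2, which encode triadin, a histidine-rich calcium-binding protein and a junctophilin of muscle, were also highest in baicalin libraries 2 and 3 (Trdn 0.470 and 0.427 FPKM, against 0.0110 in baicalin library 1 and up to 0.0213 with saline); these were chosen after their values were seen. For Atp2a1 the log2 change was 2.17 ± 0.58 and for Casq1 1.84 ± 0.61 (adjusted p = 0.324 and 0.377 in edgeR), and neither passed with all libraries. Both passed without baicalin library 1 (adjusted p = 0.00482 for Atp2a1 and 0.0260 for Casq1 in edgeR), where the 2 baicalin libraries left are those rich in muscle transcripts.

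**Figure D2:**
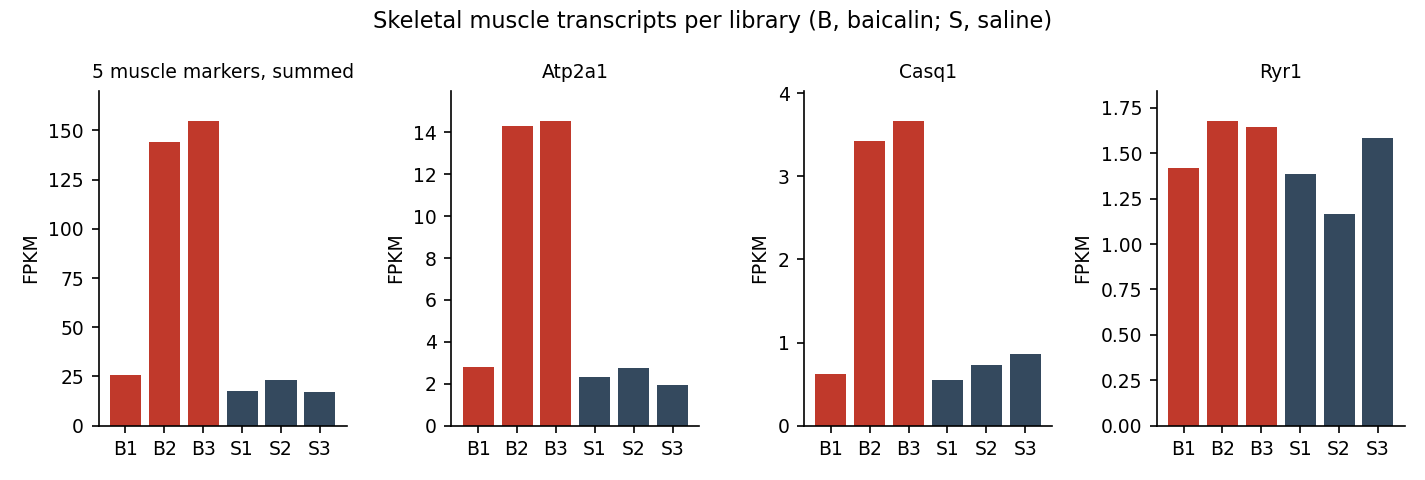
FPKM per library (B1 to B3, baicalin, red; S1 to S3, saline, dark grey) of the 5 summed skeletal muscle markers, the muscle calcium store genes Atp2a1 and Casq1, and Ryr1; bars start at 0. The marker sum, Atp2a1 and Casq1 stand out in B2 and B3, whereas Ryr1 ranges only between 1.17 and 1.68 FPKM.

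Itpr1, the main neuronal IP3 receptor and the most abundant channel gene, stood lower in every baicalin library. Its level was 19.8, 19.4 and 18.7 FPKM with baicalin, against 21.5, 22.8 and 21.4 FPKM with saline. The groups did not overlap. The log2 change was -0.18 ± 0.04, a fold of 0.886, and it did not pass (adjusted p = 0.322 in edgeR, unadjusted p = 0.00513). It did not pass in DESeq2 either (adjusted p = 0.0947). With any 1 library left out it was at -0.20 to -0.14. Cerebellar Purkinje cells are known for very high Itpr1. Of 4 Purkinje cell markers, Pcp2, Car8 and Ppp1r17 lay below the filter of 1 FPKM, while Calb1, which dentate granule cells also express, was measured. The part of cell composition in the level of Itpr1 was not tested, for Purkinje cells or for the CA1 pyramidal cells described above.

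Itpr2, the main astrocytic IP3 receptor, differed least of the genes whose groups were parted. Its level was 1.35, 1.31 and 1.20 FPKM with baicalin, against 1.40, 1.35 and 1.42 FPKM with saline. The groups did not overlap, but baicalin library 1 and saline library 2 were almost equal. The log2 change of -0.11 ± 0.07 did not pass (adjusted p = 0.573 in edgeR), and it was -0.07 without baicalin library 3, -0.04 without baicalin libraries 2 and 3, and -0.07 with limma on log2(FPKM + 1). The 5 astrocyte markers summed to 171 to 175 FPKM with baicalin and 162 to 183 FPKM with saline. Log2 changes were positive in 4 of 5, with a median of 0.02, and none of the markers was at 0. The part of cell composition in the level of Itpr2 was not tested.

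Itpr3 was read from few counts, 181 to 272 per library with baicalin and 206 to 297 with saline. It stood at 0.411, 0.371 and 0.288 FPKM with baicalin and at 0.303, 0.386 and 0.426 FPKM with saline. The groups overlapped, and in the fit with no filter the log2 change was -0.06 ± 0.19 (adjusted p = 0.952 in edgeR). Its sign turned with the library left out, so no direction can be given.

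Of the 5 channel genes tested, 0 passed the adjusted threshold in edgeR, where 0.0456% of all genes passed. DESeq2 called 1 lower, where 1.6% of all genes were called and 0.631% were called lower. At an unadjusted p under 0.05 in edgeR, Ryr3 and Itpr1 were lower, 2 of 5, against 5.46% of all genes lower and 11.8% in either direction. The groups were parted downward for Ryr3, Itpr1 and Itpr2, 3 of 5, against 9.52% of all genes. Negative log2 changes were found in 4 of 5, against 50.2% of all genes, and the median over the 5 was -0.18 against -0.0006 over all genes. These 5 genes were chosen with earlier results of these data known, and they share long transcripts.

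**Figure D3:**
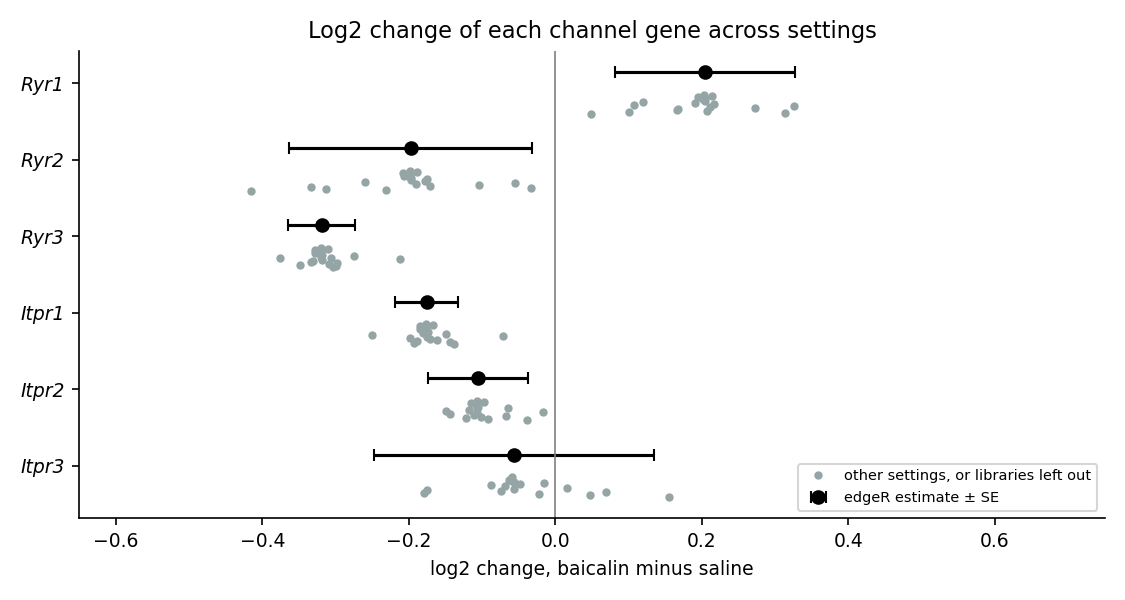
Log2 change (baicalin minus saline) of each channel gene: the edgeR estimate ± SE (black) and, below it, the values under the other settings and with libraries left out (grey). Ryr3 stays between -0.38 and -0.21, Itpr1 between -0.25 and -0.07, and Itpr3 falls on both sides of 0.

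Log2 changes differed with transcript length across all genes, and the channel genes are among the longest. An annotated length was found for 13148 genes, which were split into 10 bins. Genes of the shortest bin had a median log2 change of 0.15 and those of the longest one -0.08. All 5 tested channel genes fell in the longest bin, where 76.7% of 1315 genes had negative log2 changes, 15.5% were lower at an unadjusted p under 0.05 and 21.9% had groups parted downward. Within that bin, 6.92% of genes had a lower log2 change than Ryr3, 19.9% lower than Itpr1, 15.8% lower than Ryr2 and 41.1% lower than Itpr2. Ryr1 stood near the other end, with 94.7% of the bin below it. With the length trend removed, the log2 change of Ryr3 was -0.21 ± 0.04 (adjusted p = 0.367 in edgeR). That of Itpr1 was -0.07 ± 0.04 (adjusted p = 0.639), of Ryr2 -0.06 and of Itpr2 -0.02. What set the length trend was not tested.

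**Figure D4:**
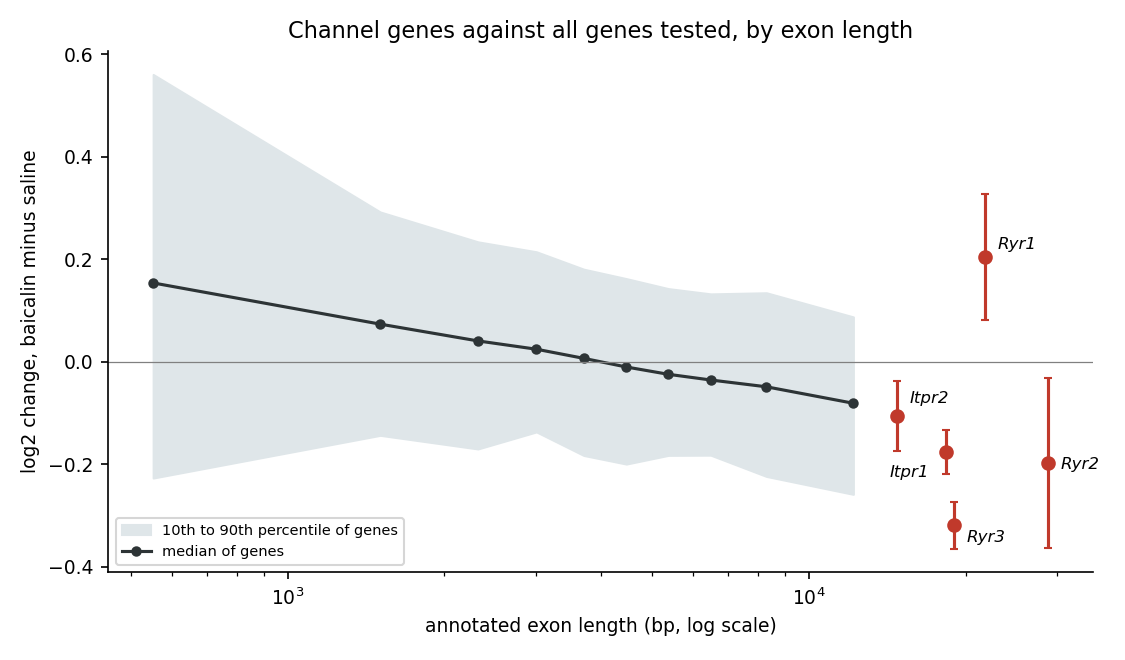
Log2 change (baicalin minus saline) against annotated exon length in bp (log scale) for all genes tested, as the median (line) and the 10th to 90th percentile (band) of 10 length bins, with the 5 tested channel genes as red points ± SE. The bins are drawn at their median length, so the band ends left of the channel genes; at its right end it spans -0.26 to 0.09, with Ryr3 (-0.32) lower and Ryr1 (0.20) higher than that.

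The make-up of each family was compared as shares of its summed FPKM within a library, which library scaling cannot change. Ryr3 made up 39.7, 37.1 and 32.1% of ryanodine receptor FPKM with baicalin and 35.6, 42.5 and 40.3% with saline. These overlapped, and the difference of -3.13 percentage points had p = 0.4 in a two-sided exact permutation test. Single libraries moved this difference: it was -1.04 percentage points when baicalin library 3 was dropped, -1.59 when saline library 2 was, -4.83 when baicalin library 1 was and -5.07 when saline library 1 was. Itpr1 made up 91.9, 92.0 and 92.7% of IP3 receptor FPKM with baicalin and 92.7, 92.9 and 92.1% with saline (difference -0.377 percentage points, exact permutation p = 0.2). That difference was -0.218 percentage points when baicalin library 1 was dropped, -0.201 when saline library 2 was, -0.610 when baicalin library 3 was and -0.613 when saline library 3 was. Both p-values with all libraries were 0.4 when adjusted over these 2 tests, and 3 against 3 libraries cannot go below 0.1. Ryr1 made up 11.7, 12.6 and 11.5% of ryanodine receptor FPKM with baicalin and 8.09, 8.67 and 10.3% with saline, which did not overlap; this share was not among the planned tests. Summed over its members, the IP3 receptor family stood at 21.6, 21.1 and 20.2 FPKM with baicalin and 23.2, 24.5 and 23.3 FPKM with saline. The ryanodine receptor family stood at 12.2, 13.3 and 14.3 FPKM with baicalin and 17.1, 13.5 and 15.3 FPKM with saline. Only the IP3 receptor sum was parted between groups, and that sum mostly repeats the values of Itpr1.

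The genes most like each channel gene over the 6 libraries were found by the root mean square difference between centred log2 CPM profiles, among 11548 named genes. Ryr3 was nearest to Akap10, which encodes an anchoring protein of protein kinase A (difference 0.03, log2 change -0.26), and Tnrc18 (0.04, log2 change -0.26). Itpr1 was nearest to Utp20, which encodes a ribosome assembly factor, and Uhmk1, which encodes a kinase (0.01 each). Itpr2 was nearest to Ncoa2, a nuclear receptor coactivator gene (0.01). For Ryr2 the nearest were Mzf1 and Aspdh (0.07 and 0.08), and for Ryr1 Slc25a53 and Metap1d (0.03 and 0.04). The channel genes were not among each other's nearest: Itpr1 ranked 264th by likeness to Ryr3. These are descriptions over 6 libraries that share the treatment contrast.

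The other genes of the endoplasmic reticulum calcium store were split between positive and negative log2 changes. Of the 92 genes on the list, 77 were tested, 36 with positive and 41 with negative log2 changes, and the median was -0.01 against -0.0006 for all genes. In edgeR 0 passed the adjusted threshold. At an unadjusted p under 0.05 there were 5 higher and 6 lower, where 6.34% and 5.46% of all genes were, and DESeq2 called 2, Casq1 among them (adjusted p = 0.0293). Groups were parted upward for 5 and downward for 6, where 9.93% and 9.52% of all genes were.

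Of the 3 pump genes tested, 2 were parted downward and Atp2a1 upward, where 9.52% and 9.93% of all genes were. Atp2a1 was parted by little, with 2.80 FPKM in baicalin library 1 against 2.77 FPKM in saline library 2. Atp2a2, which encodes SERCA2, the main pump filling the neuronal store, stood at 121, 120 and 112 FPKM with baicalin and at 125, 134 and 128 FPKM with saline. Its groups were parted, and its log2 change of -0.12 ± 0.05 did not pass (adjusted p = 0.400 in edgeR). Atp2c1, which encodes the Golgi pump, had -0.21 ± 0.08. Calr, which encodes the luminal calcium buffer calreticulin, had -0.05 ± 0.06 and overlapped.

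In store-operated entry, where STIM sensors open ORAI channels when the store empties, members differed in sign. Orai2, the main brain ORAI gene, stood at 42.3, 40.1 and 43.6 FPKM with baicalin and at 39.1, 36.6 and 38.8 FPKM with saline (log2 change 0.15 ± 0.05), and its groups were parted. Trpc5, which encodes a receptor-operated cation channel, stood at 1.19, 1.43 and 1.07 FPKM with baicalin and at 1.65, 1.75 and 1.81 FPKM with saline (log2 change -0.49 ± 0.12), and was parted downward. Neither passed (adjusted p = 0.392 for Orai2 and 0.322 for Trpc5 in edgeR). The sensor genes Stim1 (0.19 ± 0.19) and Stim2 (0.01 ± 0.06) overlapped between groups.

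Among ryanodine receptor partners past the filter of 1 FPKM, Fkbp1a had the largest log2 change, with uneven baicalin libraries. It encodes the immunophilin that binds and stabilizes the channel, and it stood at 152.5, 58.4 and 152.1 FPKM in the baicalin libraries and at 60.9, 64.4 and 57.7 FPKM in the saline libraries. Baicalin libraries 1 and 3 were high, and baicalin library 2 lay within the saline range. The log2 change of 0.999 ± 0.347 did not pass (adjusted p = 0.386 in edgeR). It was 1.33 ± 0.06 (adjusted p = 0.00694 in edgeR) without baicalin library 2, where the 2 baicalin libraries left are the high ones. Its relative Fkbp1b overlapped between groups (0.03 ± 0.10), as did the junctophilin genes Jph3 (-0.05 ± 0.06) and Jph4 (-0.09 ± 0.05), which tether the store to the plasma membrane in neurons, and Tmem38a (0.08 ± 0.07), which encodes a counter-ion channel. Akap6, which encodes an anchoring protein that binds ryanodine receptors, had -0.15 ± 0.06 with overlapping groups.

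On the IP3 side, 16 genes of IP3 production were tested, 6 with positive and 10 with negative log2 changes (median -0.05). Plcb1, which encodes a phospholipase C of the Gq pathway, stood at 14.3, 13.3 and 13.3 FPKM with baicalin and at 14.1, 15.9 and 16.1 FPKM with saline (log2 change -0.17 ± 0.06), and overlapped. Gnaq, which encodes the Gq subunit, had -0.07 ± 0.05. Of the IRBIT family, whose members bind IP3 receptors, Ahcyl2 stood at 14.8, 14.8 and 13.7 FPKM with baicalin and at 12.9, 11.9 and 13.6 FPKM with saline. Its log2 change was 0.18 ± 0.06 with groups parted by little, whereas Ahcyl1 had 0.03 ± 0.04. Neither passed (adjusted p = 0.369 for Ahcyl2 and 0.808 for Ahcyl1 in edgeR).

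Of the 12 tested genes at contacts with mitochondria and in calcium uptake there, 7 had positive and 5 negative log2 changes (median 0.02), and 0 passed the adjusted threshold in edgeR.

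**Figure D5:**
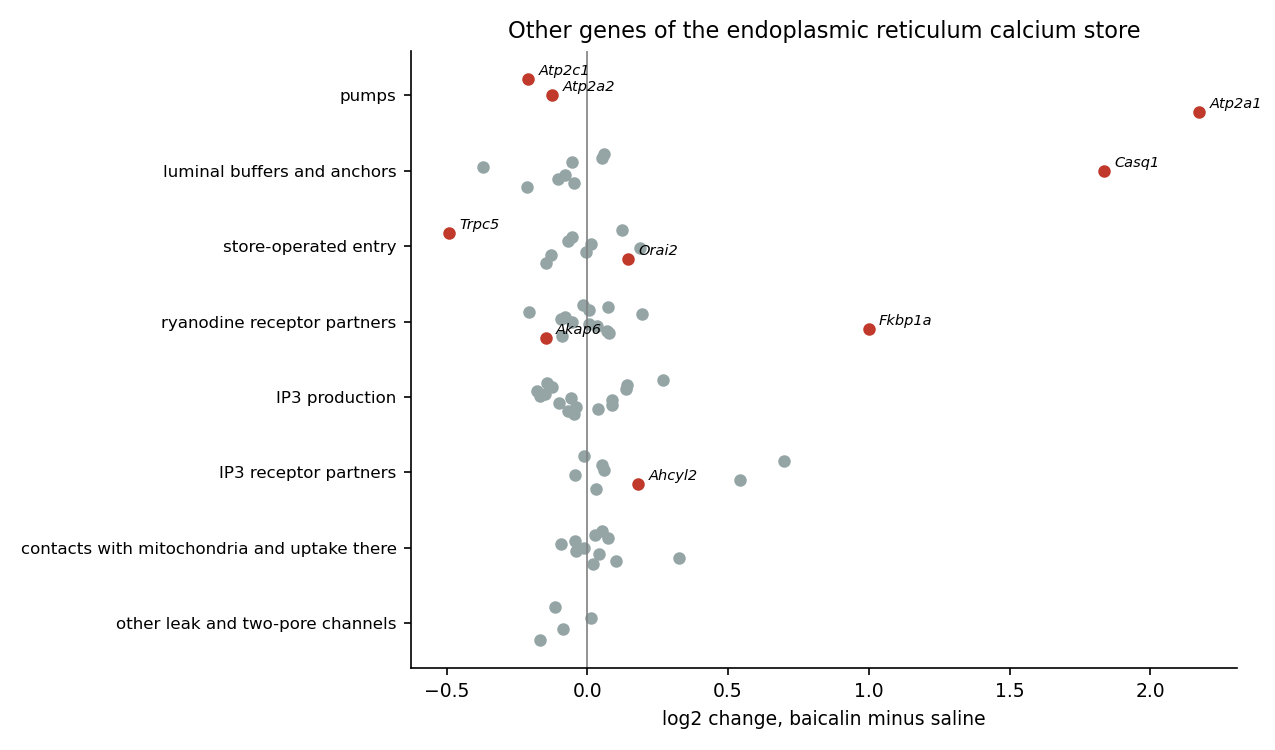
Log2 change (baicalin minus saline) of tested genes of the calcium store, by role; the genes named for a small unadjusted p are red. Most genes lie near 0, with the muscle genes Atp2a1 and Casq1 and the partner gene Fkbp1a far to the right.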

How the data were processed

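RNA sequencing of hippocampus gave 6 libraries. The authors deposited 1 table with whole-number counts per gene (not normalized, per the file headers and the differing totals) and FPKM values (scaled by the authors to transcript length and library size, per the file headers). Tools named in the submitters' processing notes are bcl2fastq 2.0, HISAT2, StringTie, DESeq2 and limma, with build mm10; which step each served is not stated. Another 12 columns of per-sample values fit no label and stayed unused.

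The 13153 genes averaging 1 FPKM or more were kept. TMM-scaled counts entered a fit with treatment as its term in edgeR 4.0.16 (R 4.3.3), with the quasi-likelihood test and Benjamini-Hochberg adjustment over all genes at 0.05. Log2 changes are baicalin minus saline, and each SE was derived from the log2 change and its F statistic. Alternatives used DESeq2 1.42.0, limma 3.58.1, other scalings and filters, a length trend removed per library (loess on the count to FPKM ratio), a replicate block, and libraries left out. Leaving out baicalin libraries 2 and 3 together was chosen after seeing the data. The main fit, the length trend removal, the replicate block, DESeq2 and limma on quantile-normalized values were tested on simulated counts. The other alternatives were not.

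The 6 genes and all lists were chosen with earlier results of these data known. Genes named were the 6 channel genes, the 10 list genes with the smallest p, 13 fixed list genes, and the 2 nearest profiles per tested channel gene; a few of these are not reported here. Annotation was GENCODE M21; 91 of 92 list genes matched the table.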

Additional observations from a re-analysis of the deposited data

How the results depend on the processing

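The number of genes changed over all genes was 6 in edgeR, 211 with DESeq2, 0 with a replicate block, 14 without baicalin libraries 2 and 3, and 2 to 39 with 1 library left out (lowest when baicalin 3 was dropped, highest when baicalin 1 was; dropping saline 2 gave 10 and dropping saline 3 gave 14). At an unadjusted p under 0.05 it was 834 higher and 718 lower, and 408 higher and 1420 lower with limma on TPM-scaled values. Channel genes called were 0, or 1 with DESeq2 (Ryr3, -0.32). Calcium store genes called were 0, or 2 with DESeq2, 1 without baicalin libraries 2 and 3, and 0 to 2 with 1 library left out. The log2 change of Itpr3 was 0.0153 with the length trend removed, 0.16 without baicalin libraries 2 and 3, and -0.180 to 0.0697 with 1 library left out. The cause of these shifts was not tested. The signs of Ryr2, Ryr3, Itpr1 and Itpr2 were negative, and that of Ryr1 positive, in each alternative run. No label says that same-numbered libraries form pairs, so the numbers were not taken as pairs. Deviations of same-numbered libraries correlated at 0.12, 0.08 and 0.01, and those of different-numbered libraries at -0.10 to 0.04. These values do not settle whether the numbers mark pairs. With the replicate block Ryr3 had -0.32 (adjusted p = 0.576 in edgeR). Ryr1 and Itpr2 were not tested at 5 FPKM, where the filter removes them, and Itpr3 was run with no filter throughout. Itpr3 rests on at most 297 counts a library, which limits what could be detected there.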
